A study of Mus musculus with 19 samples.

Results

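The genes described here are 10 enzymes of arginine, proline and creatine metabolism, chosen by name (Ass1, Asl, Arg2, Gatm, Oat, Prodh, Aldh4a1, Agxt2, Ddah1 and Pycr1) and taken at every probe set that the annotation gives to 1 of them alone. Of these 10 genes, 8 had a named probe set, with 13 probe sets in all among the 45141 on the array. Gatm, which makes the creatine precursor guanidinoacetate, and Pycr1, which makes proline, had no named probe set and were not analysed here, so creatine is covered below only by neighbouring genes. Total kidney RNA came from 19 male mice without renal ischemia-reperfusion injury, each hybridised to its own Affymetrix HT MG-430 PM array. The young-lean mice were C57BL/6J (given as C57BL/6 in the strain label), aged 10 to 14 weeks and weighing 22 to 25 g, and 5 were fed ad libitum and 4 fasted. The aged-overweight mice were F1-FVB/C57BL6-hybrid animals with an average age of 73 weeks and a weight of about 47 g, and 5 were fed ad libitum and 5 fasted. Fasting lasted 3 days with free access to water. The young and the aged mice thus differ in age, strain and body weight at once, and these cannot be told apart.

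The kidney is the main site where arginine for the rest of the body is made. Proximal tubule cells take up citrulline and convert it to argininosuccinate by Ass1 and then to arginine by Asl. Arginine is split by arginase into ornithine and urea, used by Gatm for creatine or by nitric oxide synthases, while methylated arginines that inhibit those synthases are removed by Ddah1 and Agxt2. Ornithine is drawn into polyamines by Odc1 or, through Oat, into pyrroline-5-carboxylate, the compound that also links proline (through Prodh and Pycr1) to glutamate (through Aldh4a1).

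The deposited values are log2 levels made with the Robust Multichip Average (RMA) algorithm. Array medians were 4.15 to 4.21 for young and 3.44 to 3.49 for aged mice, so levels were compared between diets within an age. Marker genes bore out the kidney label: the median level of 8 proximal tubule markers lay between 10.57 and 11.31 over all arrays and that of 9 markers of the loop, distal tubule and collecting duct between 8.34 and 9.31. Liver transcripts stood out in aged fasted mouse 33, where albumin (Alb) was at 12.58 and no other aged fasted mouse exceeded 7.33, and the median of 10 hepatocyte markers was 10.45 against at most 7.05. Among the young mice, fasted mouse 339 had the highest Alb (9.94, against at most 9.50 in the ad libitum fed). Its hepatocyte marker median of 8.65 was close to those of fasted mice 343 (8.55) and 340 (8.46). Results that rest on these mice are given with and without them.

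Of the 8 genes, 2 passed the test in aged and 4 in young kidneys at their main probe set. Of all genes, 9.16% passed in aged and 23.2% in young kidneys at their main probe set. Arg2 rose and Ass1 fell in both age groups, while Asl, Prodh and Ddah1 passed the test in neither. In aged kidneys 1 of the 13 probe sets rose and 1 fell at an adjusted p of at most 0.05 (limma, Benjamini-Hochberg over all probe sets), where 6.48% of all probe sets passed (3.16% rose and 3.32% fell). In young kidneys 2 rose and 3 fell, where 19.6% of all probe sets passed (10.1% rose and 9.54% fell). These are 15.4% and 38.5% of the 13. With a fold change of at least 1.5 as well, the numbers were 2 in aged and 3 in young kidneys, against 1.89% and 5.31% of all probe sets. The median log2 fold change of the 13 probe sets was -0.03 in aged and 0.03 in young kidneys, and that of all probe sets 0.00 in both. The 2 ages share no mice.

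**Figure D1:**
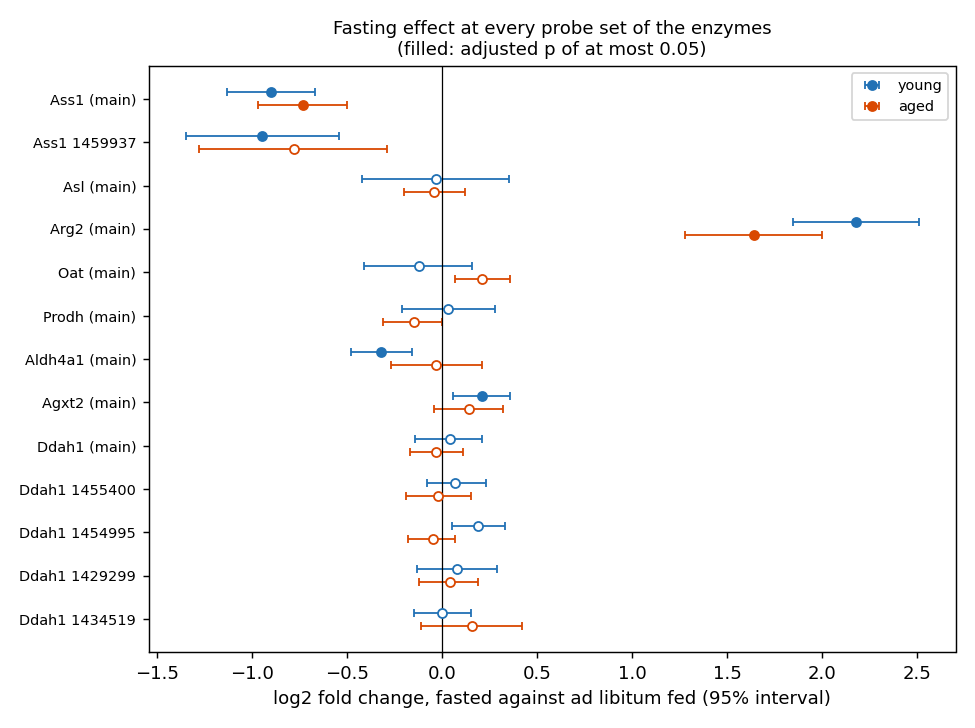
Log2 fold change of fasted against ad libitum fed mice, with its 95% interval, at the 13 probe sets of the 8 enzymes in young (blue) and aged (orange) kidneys; filled points passed an adjusted p of 0.05, and "main" is the brightest probe set of a gene. The 2 Ass1 probe sets lie left of 0 and Arg2 far to the right in both ages, while the 5 Ddah1 probe sets lie around 0.

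Arg2, the mitochondrial arginase that splits arginine into ornithine and urea, had the largest change of the 8 genes in both ages. In aged mice fed ad libitum its log2 level was 5.09, 4.83, 4.98, 5.35 and 5.44, and in fasted aged mice 6.69, 7.22, 6.48, 6.43 and 7.07. Every fasted mouse was above every ad libitum fed mouse. The log2 difference was 1.64 (standard error, SE, 0.16, limma adjusted p = 8.57e-05), a 3.12-fold rise. In young mice the level was 6.10, 5.80, 5.51, 6.38 and 6.12 in the ad libitum fed and 7.95, 8.27, 8.20 and 8.22 in the fasted group, again without overlap. The rise was 2.18 (SE 0.15, limma adjusted p = 3.6e-06) on the log2 scale, or 4.53-fold.
The log2 rise of Arg2 was thus 0.54 smaller in aged kidneys (95% interval of the difference, aged minus young, -1.04 to -0.04), a difference that did not pass the correction over all probe sets (adjusted p = 0.32 from limma, and 0.123 to 0.475 over the alternatives). The rise was 1.66 without aged fasted mouse 33 and 2.25 without young fasted mouse 339, the mice with the highest Alb of their age. Arginase is also known from macrophages. Of 9 macrophage markers, 1 rose and 1 fell in aged kidneys and 1 rose and 5 fell in young kidneys. Of all genes at their main probe set, 4.32% rose and 4.84% fell in aged kidneys. In young kidneys 10.7% of them rose and 12.5% fell. The log2 of the summed level of the macrophage markers was 9.20 to 10.13 in aged ad libitum fed and 9.17 to 9.95 in aged fasted mice. For these markers it was 9.69 to 10.08 in young ad libitum fed and 9.38 to 9.52 in young fasted mice. Their part in the rise of Arg2 was not tested.

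**Figure D2:**
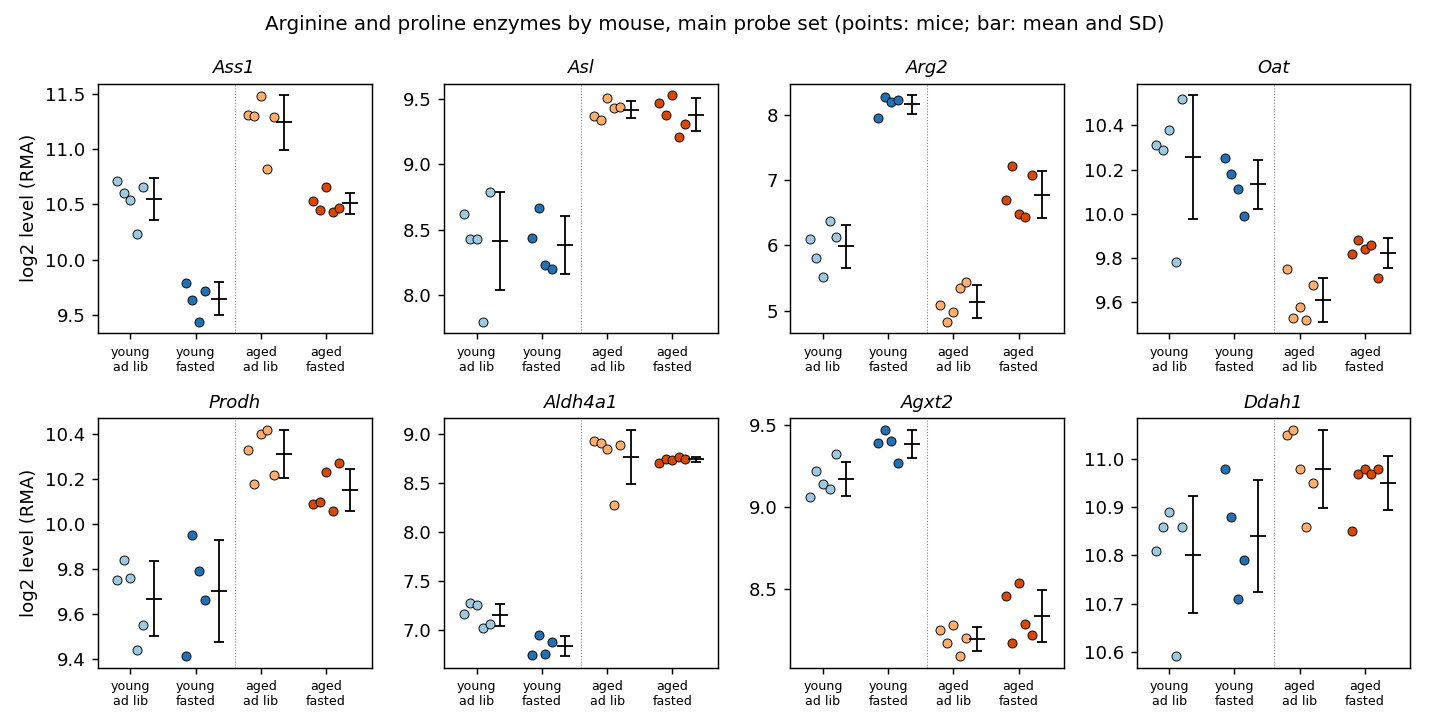
Log2 level of each enzyme at its main probe set in every mouse (points), with the mean and SD of each group (bars), for young and aged mice fed ad libitum (light) or fasted (dark). Fasted and ad libitum fed mice are apart in both ages for Arg2 and Ass1, and in young mice for Aldh4a1.

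Ass1, argininosuccinate synthase, the enzyme that sets the pace of arginine synthesis from citrulline, was lower after fasting in both ages. Its level in aged mice was 11.31, 11.30, 11.48, 10.82 and 11.29 with food and 10.53, 10.45, 10.66, 10.43 and 10.47 without. The groups did not overlap, and the lowest ad libitum fed mouse, 40, stood apart from the other 4. The log2 fold change was -0.73 (SE 0.11, limma adjusted p = 0.00159), which is 1.66-fold lower, and it was -0.84 without mouse 40. In young mice the level was 10.71, 10.60, 10.54, 10.23 and 10.66 with food and 9.79, 9.64, 9.44 and 9.72 without. The log2 fold change was -0.90 (SE 0.10, limma adjusted p = 0.000124), or 1.87-fold lower, and the groups did not overlap.
The other Ass1 probe set, 1459937_PM_at, gave -0.95 in young kidneys (adjusted p = 0.0041) and -0.78 in aged kidneys, where it missed the threshold (adjusted p = 0.0636 from limma) and its groups overlapped. The difference between the ages was 0.17 at the main probe set (95% interval -0.16 to 0.50, adjusted p = 0.728 from limma).
The fall of Ass1 went with falls of some proximal tubule markers and not of others. Of 8 measured markers of this segment, 2 rose and 2 fell in each age. Of all genes at their main probe set, 9.16% passed in aged and 23.2% in young kidneys. Slc5a2, the glucose transporter of the early proximal tubule, was lower, at -1.09 in aged and -0.89 in young kidneys, and Slc22a6, an organic anion transporter, at -0.37 and -0.32. The carboxylate transporter Slc13a3 rose by 0.64 and 0.76. The other marker that rose was Aqp1 (0.27) in aged and Slc22a8 (0.77), also an organic anion transporter, in young kidneys. The log2 of the summed level of the 8 markers was 14.46 to 14.64 in aged ad libitum fed, 14.46 to 14.61 in aged fasted, 14.48 to 14.57 in young ad libitum fed and 14.46 to 14.55 in young fasted mice. In RNA of whole kidney, fewer cells of a type and less RNA per cell cannot be told apart.

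Asl, argininosuccinate lyase, the enzyme after Ass1, did not follow it. Its log2 fold change was -0.04 in aged kidneys (95% interval -0.20 to 0.12, adjusted p = 0.826 from limma) and -0.03 in young kidneys (-0.42 to 0.35, adjusted p = 0.937). Levels ran from 9.34 to 9.51 in aged ad libitum fed and from 9.21 to 9.53 in aged fasted mice. In young mice they ran from 7.80 to 8.79 and from 8.20 to 8.67, so the spread between the young mice was wide. The lowest value was that of young ad libitum fed mouse 349.

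Promoter windows from RefSeq (GRCm38.p6) are shown for Ass1, Aldh4a1 and Agxt2, the genes with a window in the table used that passed the test in young kidneys. Each holds 250 bases before the annotated start in lower case and the 50 bases from it in capitals. The Ass1 window is chr2:31470020-31470319 on the + strand, that of Aldh4a1 chr4:139622644-139622943 (+) and that of Agxt2 chr15:10358283-10358582 (+), the first of its 2 starts in the table.
Ass1: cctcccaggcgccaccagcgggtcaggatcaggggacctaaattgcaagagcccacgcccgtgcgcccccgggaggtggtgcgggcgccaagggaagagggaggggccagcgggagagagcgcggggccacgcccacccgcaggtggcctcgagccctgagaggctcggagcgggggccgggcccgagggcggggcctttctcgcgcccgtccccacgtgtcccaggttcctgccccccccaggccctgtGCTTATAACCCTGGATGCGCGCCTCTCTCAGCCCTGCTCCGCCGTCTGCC
Aldh4a1: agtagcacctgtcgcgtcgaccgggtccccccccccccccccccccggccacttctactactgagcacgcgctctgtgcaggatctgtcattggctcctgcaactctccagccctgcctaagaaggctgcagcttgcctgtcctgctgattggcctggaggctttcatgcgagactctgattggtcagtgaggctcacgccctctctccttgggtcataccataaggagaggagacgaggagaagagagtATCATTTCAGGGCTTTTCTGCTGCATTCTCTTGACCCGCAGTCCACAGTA
Agxt2: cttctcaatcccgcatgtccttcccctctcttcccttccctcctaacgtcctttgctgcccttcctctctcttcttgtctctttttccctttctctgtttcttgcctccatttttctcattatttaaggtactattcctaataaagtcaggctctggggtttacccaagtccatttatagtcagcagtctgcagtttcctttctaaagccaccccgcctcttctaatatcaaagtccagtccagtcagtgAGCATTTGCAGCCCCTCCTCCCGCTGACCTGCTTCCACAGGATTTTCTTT
The share of G and C was 74.0% in the Ass1, 58.7% in the Aldh4a1 and 47.0% in the Agxt2 window, against a median of 52.7% over all 32851 windows. A total of 6 motifs were searched on both strands: the glucocorticoid and androgen receptor core AGAACA (in 19.0% of all windows), the direct repeat 1 of the nuclear receptors (0.0396%), the cyclic AMP element TGACGTCA (1.79%) and its core TGACG (20.8%, which the full element contains), the NRF2 element TGACNNNGC (12.4%) and the ATF4 element TGATGNAA (3.97%). None of the 6 occurred in the windows of Ass1, Aldh4a1 and Agxt2, which says only that these letters are not in these windows.

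Oat, ornithine aminotransferase, which turns ornithine into pyrroline-5-carboxylate, was at 9.75, 9.53, 9.58, 9.52 and 9.68 in aged ad libitum fed and at 9.82, 9.88, 9.84, 9.86 and 9.71 in aged fasted mice. The groups overlapped by a single fasted mouse, 42. The log2 fold change of 0.21 (SE 0.07) missed the threshold (adjusted p = 0.0914 from limma). It passed in 1 of 18 alternatives (adjusted p from 0.0479 to 0.22). In young mice its level was 10.31, 10.29, 10.38, 9.78 and 10.52 with food and 10.25, 10.18, 10.11 and 9.99 without. The groups overlapped, and the change of -0.12 (95% interval -0.41 to 0.16) did not pass (adjusted p = 0.594). The difference between the ages was 0.34 (adjusted p = 0.299 from limma), and 0.46 without young ad libitum fed mouse 349 (adjusted p = 0.0241), which had the lowest Oat level of its group.

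Of the proline-side enzymes, Aldh4a1, which oxidises pyrroline-5-carboxylate to glutamate, fell in young kidneys. Its level in young mice was 7.16, 7.27, 7.25, 7.02 and 7.06 with food and 6.74, 6.95, 6.75 and 6.88 without. All fasted mice were below all ad libitum fed ones, at a log2 difference of -0.32 (SE 0.07, limma adjusted p = 0.0098). In aged mice it was at 8.93, 8.91, 8.85, 8.28 and 8.89 with food and between 8.71 and 8.77 in the 5 fasted mice. The aged change was -0.03 (95% interval -0.27 to 0.21, adjusted p = 0.936) and -0.15 without ad libitum fed mouse 40 (adjusted p = 0.166), whose value of 8.28 was far below the other 4. The difference between the ages, 0.29, did not pass (adjusted p = 0.377 from limma), so a fall limited to young mice is not shown.
Prodh, proline dehydrogenase, the first enzyme of proline breakdown, changed by -0.15 in aged kidneys (95% interval -0.31 to 0.00, adjusted p = 0.284 from limma) and by 0.03 in young ones (-0.21 to 0.28, adjusted p = 0.892). Its level was 10.18 to 10.42 in aged ad libitum fed, 10.06 to 10.27 in aged fasted, 9.44 to 9.84 in young ad libitum fed and 9.41 to 9.95 in young fasted mice, with overlap in both ages.

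The enzymes that remove methylated arginines moved little. Agxt2, a mitochondrial aminotransferase, was at 9.06, 9.22, 9.14, 9.11 and 9.32 in young ad libitum fed and at 9.39, 9.47, 9.40 and 9.27 in young fasted mice. It rose by 0.21 (SE 0.07, 1.16-fold) in young kidneys at an adjusted p of 0.0488 from limma, although the groups overlapped. This call ended in 11 of 17 alternatives (adjusted p from 0.0265 to 0.127), among them the removal of any one of mice 346, 347, 348 and 349 of the ad libitum fed group or 339, 340 and 343 of the fasted group. In aged kidneys Agxt2 had a log2 fold change of 0.14 (adjusted p = 0.409).
Ddah1, which hydrolyses dimethylarginine to citrulline, had 5 probe sets. Their log2 fold changes ran from -0.05 to 0.16 in aged and from -0.00 to 0.19 in young kidneys, and none of the 5 passed the test in either age (the lowest adjusted p was 0.0615, for 1454995_PM_at in young kidneys). At the main probe set, 1429298_PM_at, the 95% interval was -0.17 to 0.11 in aged and -0.14 to 0.21 in young kidneys, and levels ran from 10.59 to 11.06 over all 19 mice.

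The fasting effect was set against age by testing the difference itself in a fit of the 4 group means. Of the 13 probe sets, 0 passed in limma (adjusted p from 0.14 to 0.99), where 1.95% of all probe sets passed. In an ordinary test without moderation 0 of the 13 passed. At an unadjusted p under 0.05 there were 3, and the share of all probe sets at that threshold is not given here. The 3 were Arg2, Oat and the Ddah1 probe set 1454995_PM_at (difference -0.24). Groups without overlap were found at 2 of the 13 probe sets in aged kidneys (1 with the fasted mice above and 1 below, against 3.4% and 3.84% of all probe sets and 7.25% in either direction). In young kidneys there were 4 (1 above and 3 below, against 8.63% and 8.58%, and 17.2% in either direction).
Young ad libitum fed mouse 349 was the lowest of its group of 5 at 9 of the 13 probe sets, against 22.1% of all probe sets. Several of the 9 were probe sets of Ddah1, so they are not independent. The median proximal tubule marker level of mouse 349, 10.58, was also the lowest of the 5 (10.69 to 10.90 in the others). Without mouse 349 the log2 fold change of Ass1 in young kidneys was -0.98 and that of Arg2 2.28.

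Neighbouring genes were described by 7 lists with 63 entries, of which 54 genes were measured, each at its main probe set. Over all genes at their main probe set, 9.16% passed the test in aged (4.32% up and 4.84% down) and 23.2% in young kidneys (10.7% up and 12.5% down), with a median log2 fold change of -0.01 in both. Among the neighbours that passed, the largest changes were those of Odc1 and Glud1, at the next steps of ornithine and glutamate use.

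Among genes of ornithine use, Odc1, ornithine decarboxylase, which starts polyamine synthesis, went opposite to Arg2. Its level was 9.64 to 10.06 in aged ad libitum fed, 8.04 to 8.42 in aged fasted, 9.52 to 9.91 in young ad libitum fed and 7.42 to 7.79 in young fasted mice. The log2 fold change was -1.58 in aged and -2.11 in young kidneys (adjusted p = 4.25e-07 from limma in young), with no overlap in either age. Of the 8 measured genes from ornithine to polyamines and agmatine, 2 fell and 0 rose in aged kidneys and 1 fell and 2 rose in young ones, with medians of -0.10 and -0.11. Beside Odc1 these were Sms, spermine synthase, at -0.34 in aged kidneys, and Azin2 (0.26), a partner of antizyme, and Sat1 (0.32), which acetylates polyamines, in young ones. Without young fasted mouse 339, 2 fell in young kidneys. Counted at an unadjusted p under 0.05, 0 rose in aged kidneys as well.
Of 6 measured glutamate and glyoxylate genes, 1 rose in each age and 0 fell. It was Glud1, glutamate dehydrogenase, at a log2 fold change of 1.17 in aged and 1.13 in young kidneys. The list's medians were 0.18 in aged and 0.04 in young kidneys (0.03 without aged fasted mouse 33 and 0.02 without young fasted mouse 339), and 0 members fell at an unadjusted p under 0.05.

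**Figure D3:**
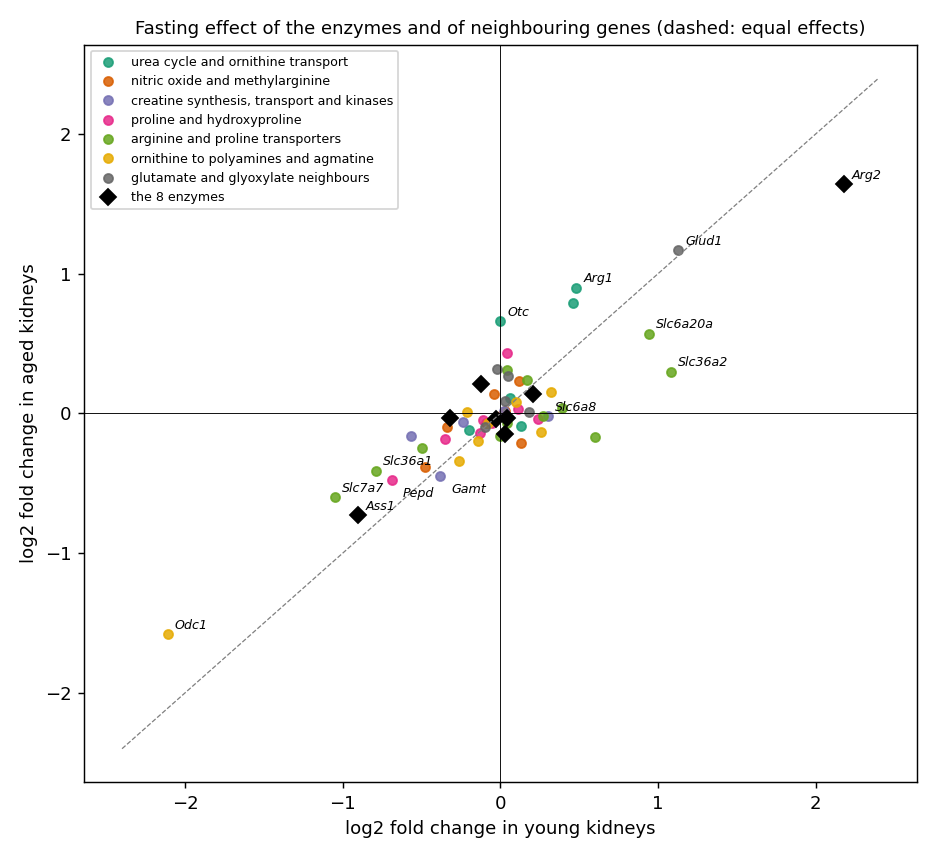
Log2 fold change after fasting in young (x axis) against aged (y axis) kidneys for the 8 enzymes (black diamonds) and the measured genes of the 7 neighbouring lists (circles), with equal effects on the dashed line. Arg2 and Glud1 lie at the upper right and Odc1, Ass1 and Slc7a7 at the lower left, while most genes lie near 0 in both ages.

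Arginine and proline transporters moved in both directions. Of 13 measured, 3 fell and 0 rose in aged kidneys (1 rose at an unadjusted p under 0.05), and 3 fell and 4 rose in young kidneys, with medians of -0.04 and 0.04 (0.02 in young kidneys without fasted mouse 339, where 3 rose). Slc7a7, which passes arginine and other cationic amino acids from tubule cells to blood, was at 10.70, 10.59, 10.71, 10.76 and 10.50 in aged ad libitum fed and at 10.25, 9.95, 10.39, 9.85 and 9.81 in aged fasted mice. Its log2 fold change was -0.60 in aged (SE 0.11, limma adjusted p = 0.00659) and -1.05 in young kidneys (SE 0.13, adjusted p = 0.000184), without overlap in either age.
Slc36a1, a proton-coupled transporter of proline and other small amino acids, fell by 0.41 in aged and by 0.79 in young kidneys. The aged call ended in 4 of 18 alternatives (adjusted p from 0.0043 to 0.0598), the ordinary test and the removal of mouse 36, 37 or 41. Slc6a20a, a proline transporter, had a log2 fold change of 0.57 in aged kidneys (adjusted p = 0.107) and rose by 0.94 in young ones (adjusted p = 0.00045 from limma). Slc6a20b, in the same list, went the other way. It passed in both ages at -0.25 in aged and -0.50 in young kidneys, without overlap in either.
Slc36a2, a related transporter of proline and glycine that is also abundant in brown adipocytes, rose by 1.08 in young kidneys (adjusted p = 0.0372 from limma). Its level in young fasted mice 339, 340, 343 and 344 was 6.25, 5.05, 5.32 and 4.08, against 3.85 to 4.33 in the ad libitum fed mice. The median level of 7 brown adipocyte markers in the same 4 fasted mice was 7.30, 5.93, 6.65 and 3.76, and it was 3.43 to 3.91 in the ad libitum fed mice. The part of such cells in the result was not tested. The call ended in 10 of 17 alternatives (adjusted p from 0.00213 to 0.139), among them the removal of any mouse but 344, and the change was 0.72 without mouse 339 and 1.44 without mouse 344.

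Creatine was represented by 5 measured genes, of which 1 fell and 0 rose in aged kidneys (0 rose at an unadjusted p under 0.05 too) and 3 fell in young kidneys (Gamt and the creatine kinases Ckm, -0.24, and Ckmt1, -0.57). Ckm was at 3.40 to 3.61 in young ad libitum fed and at 3.26 to 3.30 in young fasted mice. These levels lie below the young array medians of 4.15 to 4.21. The transporter Slc6a8 also passed in young kidneys, at probe sets that went opposite ways. Gamt, which methylates guanidinoacetate to creatine, changed by -0.45 in aged (SE 0.11, limma adjusted p = 0.0279) and by -0.38 in young kidneys (adjusted p = 0.0325). These calls ended in 7 of 18 and 6 of 17 alternatives (adjusted p up to 0.0849 and 0.102), which were the ordinary test and the removal of mouse 34, 37, 38, 39, 40 or 41 in aged and of mouse 346, 347, 348, 343 or 344 in young kidneys. At the brighter probe set of Slc6a8 the log2 fold change was -0.02 in aged and 0.30 in young kidneys. Only the young change passed there. At 1448596_PM_at the change was -0.47 and -0.50, and both passed without overlap (adjusted p = 0.00136 and 0.00319 from limma). The probe sets thus differ, and no direction is given for this gene. The list had medians of -0.06 in aged and -0.24 in young kidneys.
Of 8 measured proline and hydroxyproline genes, 1 rose and 1 fell in aged kidneys and 2 fell and 0 rose in young ones (1 rose at an unadjusted p under 0.05), with medians of -0.06 and -0.08. The 1 that rose was Prodh2 (0.43), a hydroxyproline dehydrogenase, and its call ended without aged fasted mouse 33. Pepd, the peptidase that frees proline from dipeptides, fell in both ages without overlap, by 0.48 in aged (SE 0.07) and by 0.69 in young kidneys (SE 0.07).
Of 8 measured nitric oxide and methylarginine genes, 0 passed in aged kidneys by limma and 0 by the ordinary test, with 1 higher and 1 lower at an unadjusted p under 0.05. In young kidneys 2 fell, the arginine methyltransferases Prmt3 (-0.34) and Prmt6 (-0.48), and 0 rose, with 0 higher at an unadjusted p under 0.05. The medians were -0.04 in aged (-0.07 without fasted mouse 33) and -0.02 in young kidneys.

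The urea cycle enzymes known from liver were at low levels in most kidneys. Of 6 measured genes of the urea cycle and ornithine transport, 0 passed in aged kidneys (0 by the ordinary test and 0 at an unadjusted p under 0.05) and 1 fell in young ones (the ornithine carrier Slc25a15, -0.20), with medians of 0.38 and 0.09. Without aged fasted mouse 33 the aged median turned to -0.14, and without young fasted mouse 339 the young median turned to -0.12 and 0 passed in limma (1 fell at an unadjusted p under 0.05). Arg1, the liver arginase, reached 7.95 in aged fasted mouse 33, while the 4 remaining fasted mice had 2.44 to 2.66 and the aged mice fed ad libitum 2.54 to 3.01. In young mice it was at 6.16 in fasted mouse 339 and between 3.07 and 3.92 in the other 8. Its log2 fold change of 0.90 in aged kidneys (adjusted p = 0.659 from limma) became -0.18 without mouse 33, and 0.48 in young kidneys became -0.22 without mouse 339. Otc, ornithine transcarbamylase, was at 6.50 in mouse 33 and between 2.38 and 2.80 in the other 9 aged mice, and its log2 fold change of 0.66 in aged kidneys became -0.15 without mouse 33. Both mice are those with the highest Alb of their groups. Arg2, in contrast, was at 6.69 in mouse 33, within the range of the other fasted mice.

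**Figure D4:**
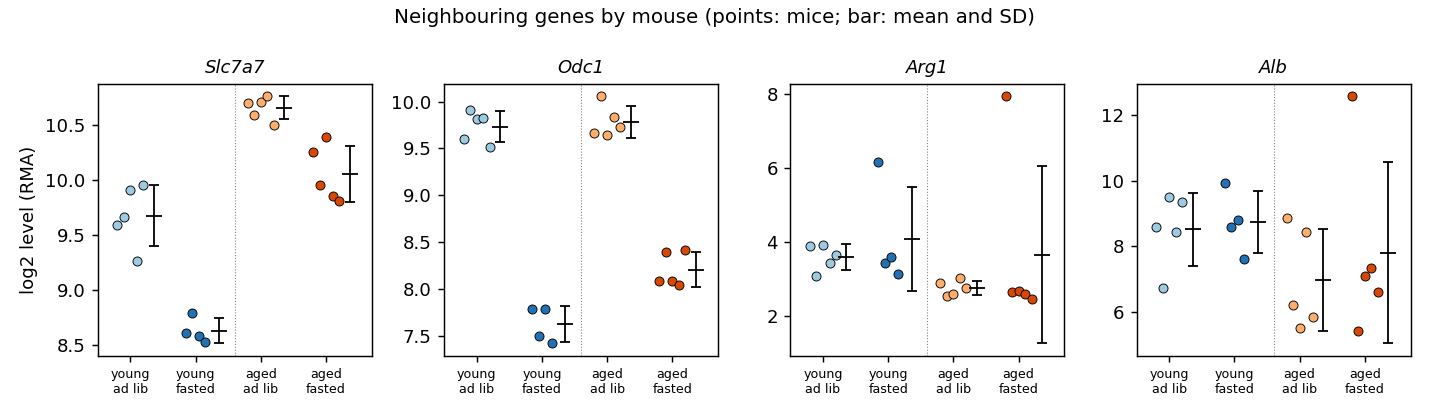
Log2 level in every mouse (points), with mean and SD per group (bars), of the arginine transporter Slc7a7, of Odc1, of the liver arginase Arg1 and of albumin (Alb). Slc7a7 and Odc1 are lower in every fasted mouse than in any ad libitum fed mouse of its age, while Arg1 is high in aged fasted mouse 33 (7.95) and young fasted mouse 339 (6.16), which also have the highest Alb of their groups.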

How the data were processed

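Kidney RNA of 19 mice in 4 groups was analysed. The authors normalized the arrays with RMA in an online pipeline, whose versions are not given in the sources used here. They deposited log2 values for 45141 probe sets. The array medians suit a separate normalization of each age. Levels across ages were not compared. The number of arrays limits the precision.

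Probe sets were named from the platform annotation provided (28898 with 1 gene symbol, 551 with several, 15692 without), updated by Entrez identifier to RefSeq symbols. The main probe set of a gene is its brightest by mean level. Fits used limma 3.58.1 in R 4.3.3, for each age separately and, for the difference between ages, on all 19 arrays, with two-sided p-values adjusted by Benjamini-Hochberg over all probe sets. Intervals are 95% intervals of limma without adjustment. Scripts were tested on simulated data. The members and lists were chosen with earlier results of these data known. Named neighbours are up to 4 per list that passed at a fold change of at least 1.5, plus Arg1, Otc, Gamt and Slc6a8. The genes behind small counts were named after their values were seen, as was the recomputation of lists without mice 33 and 339. Alternatives were other variance models, array weights, normalizations, filters, thresholds, probe set means and leaving out each array.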

Additional observations from a re-analysis of the deposited data

Results flagged for a closer look

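Of the 52 pairs of a probe set and a group, 7 held a mouse far from the others by Dixon's limit, where chance flags about 1 in 20 (2.6 of 52). The pairs are not independent, since Ddah1 and Ass1 each have more than 1 probe set in the same mice. The 7 therefore cannot be weighed against 2.6. Aged ad libitum fed mouse 40 was low for Ass1 (10.82, the next mouse at 11.29) and for Aldh4a1 (8.28, the next at 8.85). Young ad libitum fed mouse 349 was low at 3 Ddah1 probe sets, with 10.59 at 1429298_PM_at, 10.25 at 1455400_PM_at and 8.21 at 1429299_PM_at. Young ad libitum fed mouse 347 was low at the second Ass1 probe set, 1459937_PM_at (6.94, the next at 7.12), and aged fasted mouse 33 at the Ddah1 probe set 1429298_PM_at (10.85, the next at 10.97).

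Mouse 40 also had the highest median level of brown adipocyte markers (7.10) and of hepatocyte markers (7.77) among the aged ad libitum fed mice. Its median proximal tubule marker level of 10.81 was the lowest of this group (11.08 to 11.20 in the others). The median of its loop, distal and collecting duct markers (8.34) was the lowest as well. The part of these cells in the low values of mouse 40 was not tested. Of the 54 measured neighbouring genes, 1 passed the test of the difference between ages, Slc3a2. Of all probe sets, 1.95% passed that test, so 1 such gene does not set these lists apart. It encodes the heavy chain shared by several amino acid transporters, and it was picked with its values known. The log2 fold change was 0.60 in young (adjusted p = 0.0196) and -0.17 in aged kidneys (adjusted p = 0.284), which makes a difference of -0.77 (limma adjusted p = 0.0313). Young ad libitum fed mouse 349 had the lowest Slc3a2 level of its group, 7.94 against 8.54 to 8.79 in the others.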

How the results depend on the processing

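The direction and the call of Arg2 and Ass1 held in both ages under every alternative run. The log2 fold change of Arg2 ran from 1.53 to 1.73 in aged and from 2.06 to 2.28 in young kidneys, and that of Ass1 from -0.84 to -0.67 and from -0.98 to -0.83. The number of probe sets that passed was 2 to 3 in aged kidneys. In young kidneys it was 5, and 3 with a fold change of at least 1.5, and 4 to 6 under the others. For the difference between ages it was 0 to 1 when each mouse was left out, the 1 being Oat without young ad libitum fed mouse 349.

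Some values turned sign, and the cause was not tested. With the mean over the probe sets of a gene, Ddah1 was at 0.02 in aged and Otc at 0.02 and Slc6a8 at -0.10 in young kidneys. The difference between ages became 0.00 for Asl and -0.00 for Glud1 with quantile normalization, and 0.01 for Asl with arrays centred on their medians. When each mouse was left out, values in aged kidneys ran from -0.15 to 0.01 for Aldh4a1, -0.05 to 0.03 for Slc6a8, -0.18 to 1.20 for Arg1 and -0.15 to 0.88 for Otc. In young kidneys they ran from -0.19 to 0.06 for Asl, -0.05 to 0.13 for Prodh, -0.02 to 0.08 for Ddah1, -0.22 to 0.80 for Arg1 and -0.05 to 0.04 for Otc. The difference between ages ran from -0.10 to 0.14 for Asl, -0.65 to 1.11 for Arg1 and -0.15 to 0.88 for Otc. No mouse number occurs in more than 1 group. The paper describes matching mice in pairs by body weight and sex before diets were assigned in its preoperative fasting experiment. It does not say whether the mice of the arrays were matched in this way. The labels give no such pairs, so no paired analysis was made.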
